A study of Mus musculus with 227 samples.

Results

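Triptans are acute migraine drugs, and 4 of them were measured here: Zolmitriptan, Almotriptan, Naratriptan·HCl and Rizatriptan Benzoate. They were taken as the libraries whose agent label begins with 1 of these names, which gave 4 of the 218 drug libraries of an RNA-seq screen that also holds 9 vehicle libraries. Every library came from primary cerebrocortical cultures of mouse embryos of embryonic day 16.5, from the cross labelled F1 embryo FVBN(F)xC3B6F1(M), aged 21 days in vitro and then exposed for 8 h to a drug or to vehicle (0.2% DMSO). All cultures were otherwise untreated, and the labels name no transgene or other allele. Each triptan has 1 library, the drug concentrations are not given in the sources used here, and nothing in the labels says whether the vehicle libraries came from separate cultures or preparations. The p-values below therefore measure the spread between these libraries, which may be technical.

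The column names carry a run code, and it was used as the libraries' only grouping beside the drug. Zolmitriptan shares its run code with Vehicle 1 and 30 other drugs, Almotriptan shares another with Vehicle 4 and 30 other drugs, and Naratriptan and Rizatriptan are together in the third with Vehicle 5 and 29 other drugs. The other 6 vehicles are in run codes that hold no triptan. For this reason the triptans were set against the 9 vehicles and, separately, against the 89 other drugs of their own run codes with run code as a term. The triptan libraries held 26.6 to 45.5 M counts against 31.4 to 43.8 M in the vehicles, with 3.3 to 4.0% and 3.1 to 3.9% of counts on mitochondrial genes. Levels below are in CPM, the counts relative to the library size scaled with TMM factors, differences are on the log2 scale with their standard errors, and a gene passed the test at a Benjamini-Hochberg adjusted p under 0.05.

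As background, triptans are agonists of the serotonin receptors encoded by Htr1b and Htr1d, and several of them also bind the receptor encoded by Htr1f. These receptors couple to inhibitory G proteins of the Gi/o family, which lower cyclic AMP and can open GIRK potassium channels in neurons. The receptor encoded by Htr1b constricts cranial blood vessels from smooth muscle, and receptors on trigeminal nerve endings curb the release of the neuropeptide CGRP, which Calca and Calcb encode. Monoamine oxidase A, the product of Maoa, breaks several of these drugs down. All 4 drugs share an indole core. Naratriptan holds its basic amine in a piperidine ring, whereas the others carry it on an open dimethylaminoethyl chain. Almotriptan and Naratriptan have a sulfonyl group on the other side chain of the indole. Zolmitriptan and Rizatriptan have a nitrogen heterocycle and no sulfonyl group there, so the sulfonyl group is what separates these pairs.

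Neuron and astrocyte markers were abundant in the triptan libraries, as the label of the cultures states. The summed level of the 8 neuron markers was 4505 to 5185 CPM in the triptans and 4477 to 6257 CPM in the vehicles, and that of the 8 astrocyte markers 6943 to 8236 and 6345 to 7982 CPM. Microglia markers summed to 4.62 to 9.55 CPM and endothelial markers to 2.78 to 4.42 CPM in the triptans, so RNA of the vessel lining and of the brain's immune cells was scarce. Markers of serotonergic neurons, whose cell bodies lie in the brainstem, were near 0. Tph2, the enzyme of neuronal serotonin synthesis, was at 0.225 to 0.306 CPM in the triptans and 0.162 to 0.372 CPM in the vehicles, and Fev, a transcription factor of these neurons, was at 0 CPM in Almotriptan and Naratriptan. In such bulk libraries fewer cells of a type and less RNA per cell cannot be told apart.

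The 3 receptor genes that triptans act on were transcribed at low levels in these cultures. Per gene length, Htr1b averaged 1.29 ± 0.258 RPKM (SD, n = 9) in the vehicles, Htr1f 0.465 ± 0.102 RPKM and Htr1d 0.333 ± 0.0943 RPKM. The most abundant serotonin receptor gene was Htr2c at 11.3 ± 1.7 RPKM, followed by Htr2a at 4.3 ± 0.605 RPKM, which encode receptors coupled to Gq, and by Htr3a at 3.3 ± 0.625 RPKM, which encodes a subunit of a serotonin-gated ion channel. The triptan libraries kept Htr2c above Htr2a and both above Htr1b, with 8.02 to 10.0 RPKM for Htr2c and 0.833 to 1.03 RPKM for Htr1b. Htr1b lies on chromosome 9 (81628291 to 81633828), Htr1d on chromosome 4 (136423524 to 136444398) and Htr1f on chromosome 16 (64924729 to 65105854) in GRCm38, the mouse build also called mm10.

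**Figure D1:**
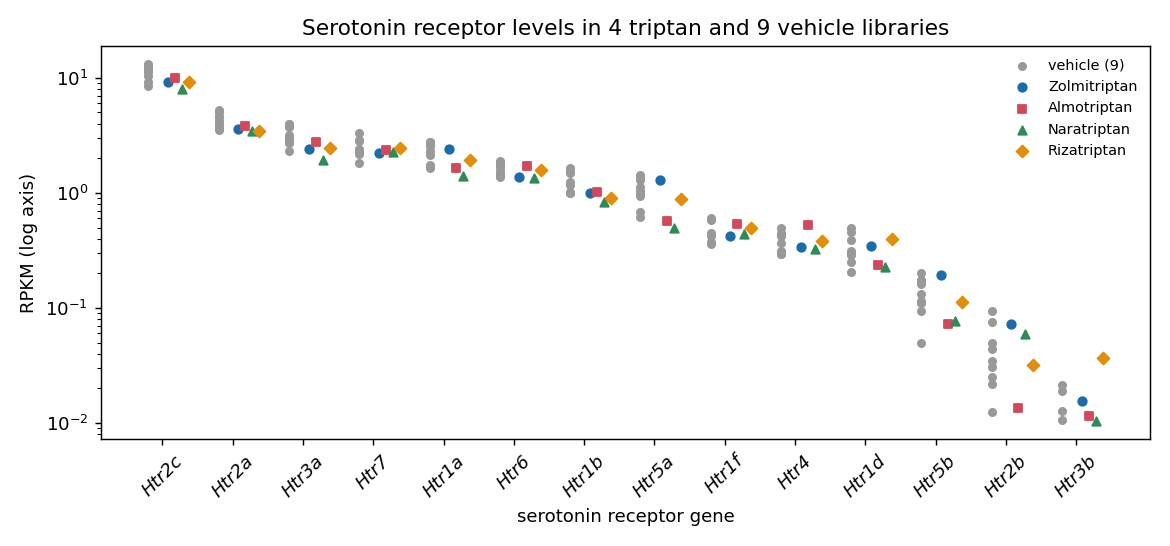
RPKM (log axis) of the 14 serotonin receptor genes in the 9 vehicle libraries (grey) and the 4 triptan libraries (coloured), ordered by the vehicle mean; values of 0 cannot be drawn on a log axis. Htr2c is highest in vehicles at 11.3 RPKM on average, Htr1b averages 1.29 RPKM, and triptan points lie within or just below the vehicle range for most genes.

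No gene passed the edgeR quasi-likelihood test when the 4 triptans were compared with the 9 vehicles as 1 class (0 of 14881 genes, 0%), and none did against the 89 other drugs of their run codes (0 of 15425 genes, 0%). Against vehicle, 1892 genes (12.7%) had an unadjusted p under 0.05 and the lowest adjusted p by edgeR was 0.356. Within run code, 166 genes (1.08%) had an unadjusted p under 0.05 and the lowest adjusted p was 1. That share is below what evenly spread p-values would give, so the edgeR test within run code was conservative. The spread of its comparator includes any effects of the 89 drugs themselves. A miss within run code therefore does not show that a gene was unchanged. Leaving out 8 drugs with changed genes gave 199 genes (1.29%) at an unadjusted p under 0.05. DESeq2 called 2 genes against vehicle, Cntnap1 and Cnn1 (2327 at an unadjusted p under 0.05), and 0 against the other drugs (156 at an unadjusted p under 0.05). A limma fit of the whole screen, with run code in the model, called 0 genes against vehicle (228 at an unadjusted p under 0.05), and limma called 0 against the other drugs (171 at an unadjusted p under 0.05).

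The count of genes at an unadjusted p under 0.05 against vehicle depended on the libraries and on run code. It was 686 with run code as a block, 498 against only the 3 vehicles of the triptans' own run codes, 383 without Naratriptan, 987 without Rizatriptan, 3152 without Vehicle 1, 3397 without Vehicle 2 and 3163 without Vehicle 3. It was 1184 without Vehicle 5, 1047 without Vehicle 6, 1097 without Vehicle 7 and 1098 without Vehicle 8. No gene passed in any of these fits. The unadjusted 95% intervals give the precision of each difference, not the size needed to pass the adjusted threshold. They are summarised for 13023 genes with a mean of 1 CPM or more. The median distance from an interval's centre to its edge was 0.183 log2 units against vehicle and 0.127 within run code. For 94.7% of those genes the interval against vehicle lay wholly within 1 log2 unit of 0, and within run code this held for 99.5%.

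**Figure D2:**
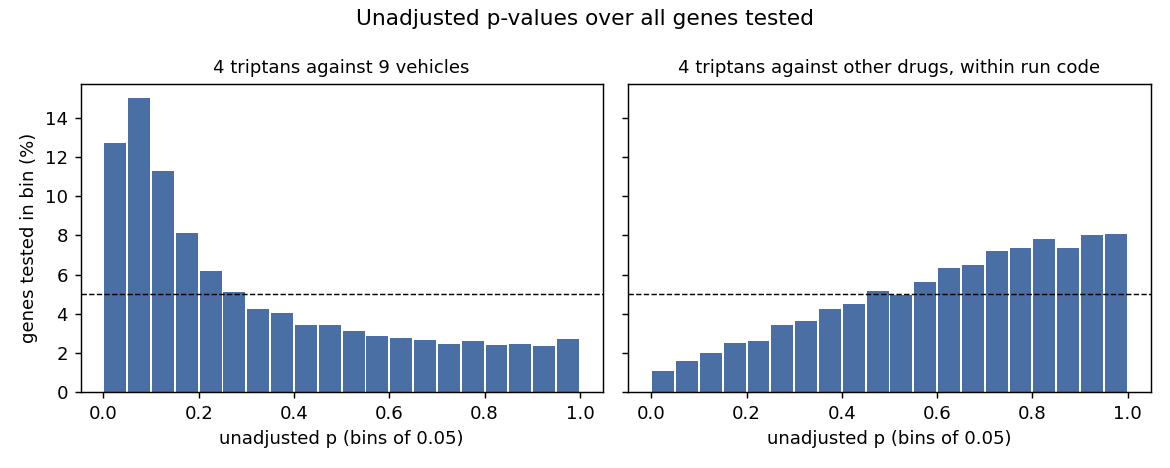
Share of genes tested (%) in each bin of unadjusted p for the 4 triptans against the 9 vehicles (left) and against the 89 other drugs within run code (right); the dashed line marks the 5% per bin that evenly spread p-values would give. The lowest bin holds 12.7% of genes on the left and 1.08% on the right.

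Among the receptors that triptans act on, Htr1b was at 4.72 CPM with Zolmitriptan, 4.81 with Almotriptan, 3.96 with Naratriptan and 4.07 with Rizatriptan, against 4.47 to 7.72 CPM in the vehicles (median 5.81). Naratriptan and Rizatriptan were below all 9 vehicles, and the other two were inside their range. The difference from vehicle was -0.48 ± 0.17 (edgeR adjusted p = 0.356), -0.29 ± 0.11 with run code as a block (adjusted p = 0.745), and 0.07 ± 0.16 against the other drugs of the same run codes (adjusted p = 1). Within its run, Htr1b was higher than in 21 of 30 other drugs for Zolmitriptan, 26 of 30 for Almotriptan, 8 of 29 for Naratriptan and 10 of 29 for Rizatriptan. Almotriptan thus stood near the top of its run and Naratriptan in the lower part of its own.

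Htr1d was at 1.05 CPM with Zolmitriptan, 0.723 with Almotriptan, 0.702 with Naratriptan and 1.2 with Rizatriptan, and the 9 vehicles spanned 0.630 to 1.53 CPM. All triptans were inside the vehicle range, with differences of -0.17 ± 0.23 from vehicle and -0.04 ± 0.18 from the other drugs (edgeR adjusted p = 0.669 and 1). Htr1f, at 1.05 to 1.33 CPM in the triptans and 0.880 to 1.53 CPM in the vehicles, differed by 0.01 ± 0.17 and 0.00 ± 0.18. For each of these 3 receptor genes the 95% interval within run code lay between -0.41 and 0.39.

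Of the 14 listed serotonin receptor genes 12 were tested, and none passed in either direction in either comparison. Their median difference from vehicle was -0.29, with 10 of 12 below 0, where the median of all genes was 0.00. By edgeR, 4 of them had an unadjusted p under 0.05 against vehicle, beside 12.7% of all genes. Within run code the median was 0.00 and 5 of 12 were below 0, with none at an unadjusted p under 0.05. Htr3a was lowest on both counts, at -0.48 ± 0.16 and -0.18 ± 0.19. Htr2a was at -0.29 ± 0.10 from vehicle and 0.00 ± 0.09 from the other drugs, and Htr2c at -0.33 ± 0.12 and -0.04 ± 0.12. Of the 8 neuron markers, all were below 0 against vehicle (median -0.23) and 3 within run code (median 0.03). The part of neuron content in the receptor values was not tested.

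The genes of serotonin handling gave no gene past the threshold among the 8 of 12 that were tested. Maoa, at 57.7, 49.4, 53.7 and 52.0 CPM with Zolmitriptan, Almotriptan, Naratriptan and Rizatriptan, differed by 0.09 ± 0.05 from the vehicles (47.1 to 53.9 CPM) and by 0.04 ± 0.04 from the other drugs. Maob, the sister enzyme that is prominent in astrocytes, was at 0.695 CPM with Almotriptan, below all 30 other drugs of its run, and at 1.92 CPM with Rizatriptan, above 28 of 29. Slc6a4, the serotonin transporter, was at 0.525 CPM with Zolmitriptan, above all 30 other drugs of its run, and at 0.445 CPM with Almotriptan, above 28 of 30. It was at 0.150 CPM with Naratriptan and 0.190 CPM with Rizatriptan, each above 4 of 29. These Slc6a4 levels rest on 14, 16, 6 and 9 counts with Zolmitriptan, Almotriptan, Naratriptan and Rizatriptan. The exact Poisson 95% intervals of the highest and lowest levels were 0.287 to 0.881 CPM with Zolmitriptan and 0.0552 to 0.327 CPM with Naratriptan. They cover counting error only, and their slight overlap does not test the difference. Each taken relative to the other drugs of its run, Zolmitriptan was 1.75 log2 units above Naratriptan for Slc6a4. The 4 drugs were thus spread over both sides for Slc6a4 and Maob, and the class difference within run code was 0.17 ± 0.29 and -0.07 ± 0.19.

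Downstream of the receptors, the list of Gi/o proteins, GIRK channels and their regulators was tested for all 25 members and gave none past the threshold. Its median was -0.19 from vehicle with 22 of 25 below 0, and 0.00 within run code with 12 of 25 below 0. By edgeR, 7 had an unadjusted p under 0.05 against vehicle and none did within run code, beside 12.7% and 1.08% of all genes. Kcnj9, a GIRK channel subunit, had 1 of the lowest p-values against vehicle: 38.5 CPM with Zolmitriptan, 34.2 with Almotriptan, 29.8 with Naratriptan and 33.1 with Rizatriptan, against 36.4 to 54.6 CPM in the vehicles. All but Zolmitriptan were below every vehicle. The difference was -0.43 ± 0.11 from vehicle (edgeR adjusted p = 0.356), -0.33 ± 0.09 with run code as a block and -0.07 ± 0.13 within run code. The subunits Kcnj3 (-0.34 ± 0.13 and -0.03 ± 0.10) and Kcnj6 (-0.30 ± 0.11 and -0.09 ± 0.12) gave the same pair of signs. Kcnj5, the other GIRK subunit listed, at under 1 CPM in every triptan library, had the opposite sign and was the highest member of the list in both comparisons, at 0.56 ± 0.41 and 0.38 ± 0.22. Gnao1, the main G protein alpha subunit of neurons, was at 823 to 899 CPM in the triptans and 848 to 1135 CPM in the vehicles, with 0.00 ± 0.06 within run code.

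The same held for the machinery of cyclic AMP and for its target genes. Adenylyl cyclases, phosphodiesterases and kinase subunits, 26 of 26 tested, had a median of -0.17 from vehicle and 0.01 within run code, and none passed. Genes that cyclic AMP and the factor CREB induce, 19 of 20 tested, had medians of -0.47 and -0.04, and none passed. All 26 intervals of the cyclase and phosphodiesterase list lay within 1 log2 unit of 0 within run code, as did those of all 19 tested target genes.

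Activity-regulated genes, which neurons switch on when they fire, were spread widely over the vehicles themselves. None of the 32 passed in either comparison. The median was -0.86 from vehicle with 30 of 32 below 0, and -0.17 within run code with 29 of 32 below 0. Single comparator drugs were far higher, as Nilotinib in the run of Naratriptan and Rizatriptan held 161 CPM of Fos and 115 CPM of Npas4. The part of such drugs in the within-run count was not tested. Fos was at 55.2 CPM with Zolmitriptan, 26.3 with Almotriptan, 23.7 with Naratriptan and 21.0 with Rizatriptan, and the vehicles ran from 16.6 to 139 CPM (median 52.2). Npas4 was at 33.5, 11.7, 6.7 and 9.34 CPM in the same order, with vehicles from 8.69 to 147 CPM. Only Naratriptan lay outside the vehicle range for Npas4, and none did for Fos.

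Their differences were -1.04 ± 0.59 for Fos and -1.91 ± 0.85 for Npas4 from vehicle, -0.31 ± 0.61 and -0.96 ± 0.85 with run code as a block, and -0.38 ± 0.37 and -0.48 ± 0.55 against the other drugs. The value of Npas4 within run code was -0.92 without Zolmitriptan and -0.17 without Naratriptan, so single libraries moved it. A list score, the mean log2 CPM over the list minus the median of the other drugs in the run, was 0.24 for Zolmitriptan (above 23 of 30 other drugs), 0.15 for Almotriptan (20 of 30), -0.42 for Naratriptan (4 of 29) and -0.03 for Rizatriptan (14 of 29). On the scale of the vehicle mean, the score of single vehicles ran from -1.12 to 1.09. The vehicle of the run of Naratriptan and Rizatriptan scored 1.1 above that run's other drugs, so both triptans were below their own vehicle. Zolmitriptan and Almotriptan were above theirs, which scored -0.27 and -0.03.

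**Figure D3:**
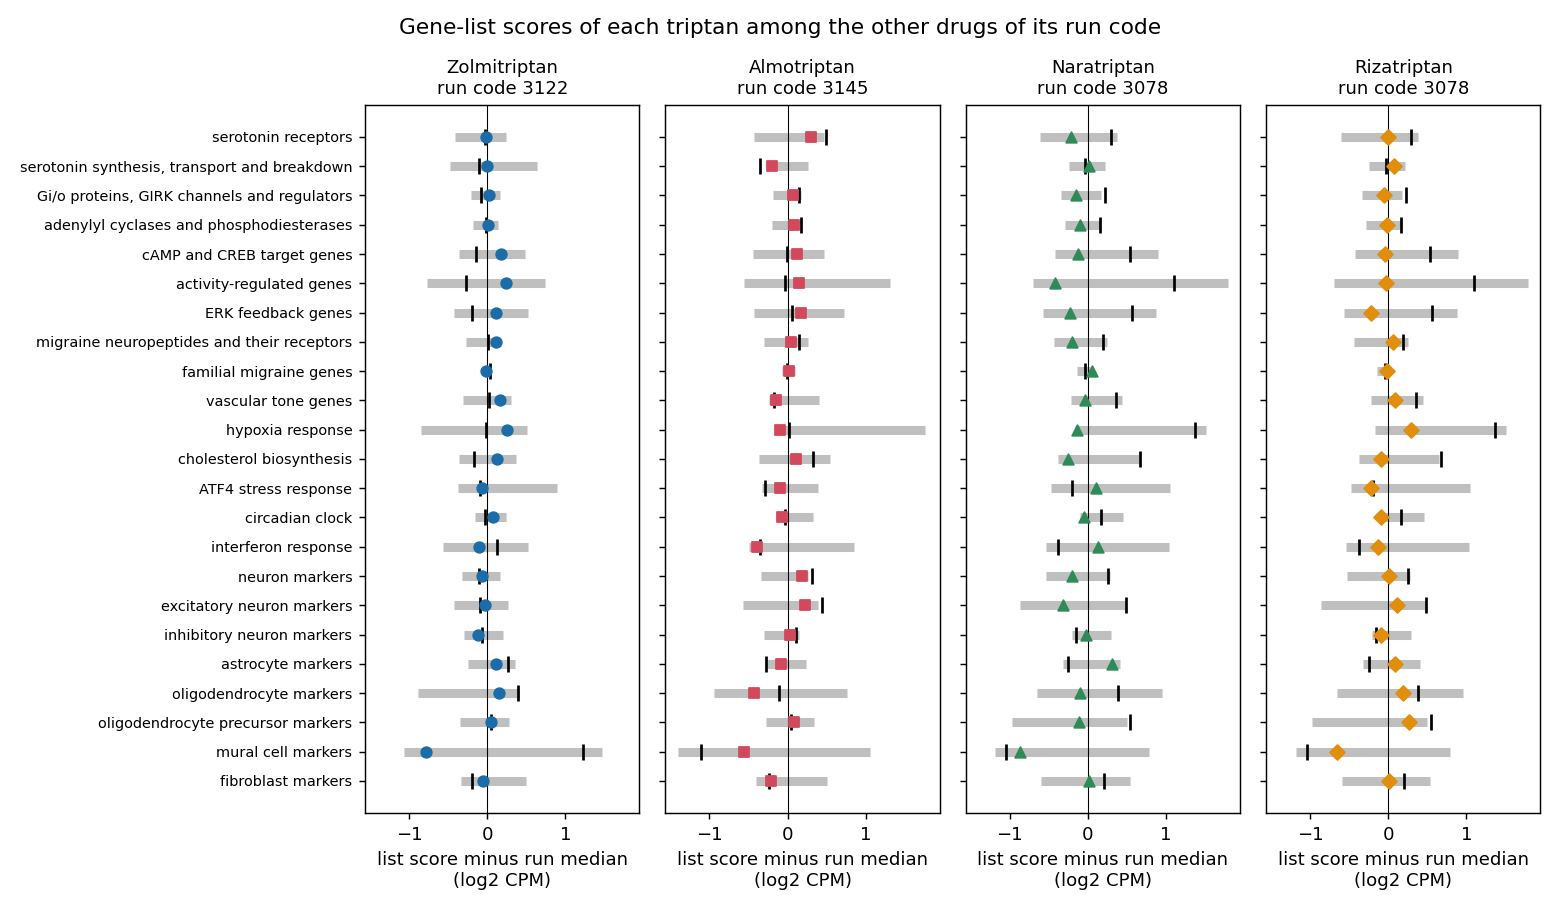
List scores (mean log2 CPM minus the median of the other drugs of the run code) of each triptan (coloured point), the range of the other drugs of that run (grey bar) and the run's vehicle (black tick), for 23 gene lists. For activity-regulated genes Naratriptan is at -0.42 and the vehicle of its run at 1.1; for mural cell markers all 4 triptans are below 0, between -0.87 and -0.55.

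Neuropeptides and receptors tied to migraine gave no call among the 22 of 24 tested, with a median of -0.15 from vehicle and 0.01 within run code. Calca, which encodes CGRP, was at 3.1 CPM with Zolmitriptan, 2.22 with Almotriptan, 2.76 with Naratriptan and 2.99 with Rizatriptan, against 2.3 to 4.0 CPM in the vehicles. Almotriptan alone was below all vehicles, and the class differences were -0.15 ± 0.15 and -0.07 ± 0.11. Calcb, the second CGRP gene, was at no more than 0.0278 CPM in any triptan and was not tested. Ramp1, which makes the CGRP receptor with the product of Calcrl, differed between the members: 9.74 CPM with Zolmitriptan, above all vehicles (2.94 to 8.84 CPM), 5.1 with Rizatriptan, and 2.1 with Almotriptan and 2.18 with Naratriptan, below all vehicles. Its class difference was -0.46 ± 0.39 from vehicle and -0.09 ± 0.34 within run code.

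Vip, a vasodilating peptide of a class of cortical interneurons, had 1 of the lowest p-values against vehicle. It was at 17.7 CPM with Zolmitriptan, 16.6 with Almotriptan, 10.5 with Naratriptan and 13.2 with Rizatriptan, against 17.3 to 36.5 CPM in the vehicles. All but Zolmitriptan were below every vehicle. The difference was -0.78 ± 0.20 (edgeR adjusted p = 0.356), -0.57 ± 0.17 with run code as a block, and -0.27 ± 0.29 against the other drugs. Vipr2, a receptor for this peptide, was at 0.85 ± 0.30 from vehicle and 0.17 ± 0.18 within run code. Adcyap1, which encodes the migraine-linked peptide PACAP, was at 28.6 and 17.4 CPM with Zolmitriptan and Almotriptan, above 25 of 30 other drugs in each run, and at 10.8 and 9.07 CPM with Naratriptan and Rizatriptan, above 8 and 6 of 29.

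Genes of familial migraine, 7 of 8 tested, lay close to 0. Their median was 0.01 from vehicle and -0.01 within run code, and every within-run interval lay inside 1 log2 unit. Cacna1a, a neuronal calcium channel, was at -0.26 ± 0.11 and -0.01 ± 0.09, and Scn1a, a sodium channel, at -0.05 ± 0.08 and -0.03 ± 0.05. Notch3, expressed by mural cells of vessels, was at 0.25 ± 0.15 and 0.07 ± 0.08. Of the 8 astrocyte markers, 7 were above 0 against vehicle (median 0.26) and 8 within run code (median 0.06), and their part in the list's values was not tested.

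The mural cell list, which holds contractile genes of smooth muscle, had the lowest median of the 26 lists in both comparisons. It was at -1.67 from vehicle and -1.30 within run code with 5 of its 7 genes tested, and none of them passed the edgeR test. The summed level of the list overlapped, at 29.5 to 45.3 CPM in the triptans and 19.8 to 55.1 CPM in the vehicles. Pdgfrb, a member given below, was above 0 in both comparisons. Acta2, smooth-muscle actin, was at 0.112 CPM with Zolmitriptan, 0.723 with Almotriptan, 0.201 with Naratriptan and 0.506 with Rizatriptan, while the vehicles ran from 0.117 to 8.04 CPM (median 2.31). Vehicles lay on both sides: Vehicle 1 of the run of Zolmitriptan had 259 counts for Acta2, whereas Vehicle 4 and Vehicle 5 of the other 2 runs had 6 and 9. Zolmitriptan itself had 3 counts, so its level of 0.112 CPM carries an exact Poisson 95% interval of 0.0232 to 0.329 CPM, which covers counting error only. Within run, Acta2 was above 0 of 30, 11 of 30, 2 of 29 and 5 of 29 other drugs for Zolmitriptan, Almotriptan, Naratriptan and Rizatriptan.

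For Acta2 the difference was -2.78 ± 1.2 from vehicle and -2.08 ± 0.90 within run code (edgeR unadjusted p = 0.0223, adjusted p = 1), with -1.1 ± 1.5 against vehicle once run code was a block. Tagln, the actin-binding protein transgelin, was at 1.24, 0.695, 0.652 and 0.506 CPM in the same order, with vehicles from 0.476 to 6.33 CPM. It was at -1.67 ± 0.73, -1.34 ± 0.57 (edgeR unadjusted p = 0.0197, adjusted p = 1) and -0.82 ± 0.66 in those 3 fits, and within run it was above 10 of 30, 3 of 30, 1 of 29 and 0 of 29 other drugs. Each triptan was thus below its run's mean for Acta2 and Tagln, and single vehicles reached the same low levels.

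**Figure D4:**
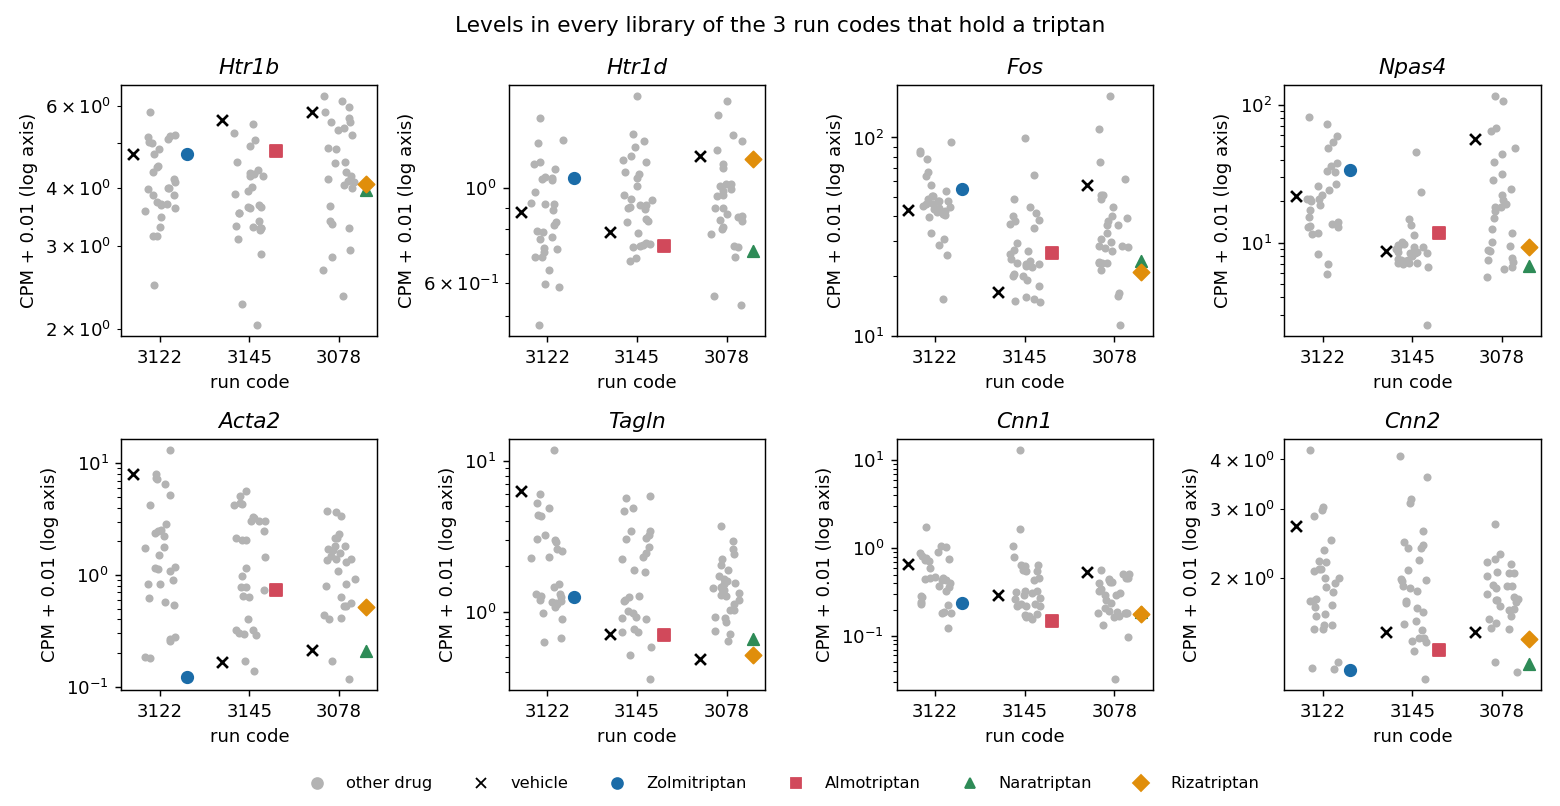
CPM plus 0.01 (log axis) of 8 genes in every library of the 3 run codes that hold a triptan: other drugs (grey), the run's vehicle (cross) and the triptans (coloured). Acta2, Tagln, Cnn1 and Cnn2 are low among the libraries of each run with most triptans, and the vehicle of the run of Zolmitriptan is high for Acta2 at 8.04 CPM while those of the other 2 runs are low at 0.156 and 0.204 CPM.

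Cnn1, the smooth-muscle calponin, was at 0.225 CPM with Zolmitriptan, 0.139 with Almotriptan, 0.176 with Naratriptan and 0.169 with Rizatriptan, from 5 to 8 counts each. The vehicles held 0.286 to 1.08 CPM from 11 to 43 counts. Almotriptan was the lowest drug of its run, but other drugs went lower in the other runs. These reached 0.1135 CPM (Dexamethasone) in the run of Zolmitriptan and 0.0227 CPM (Selegiline) in that of Naratriptan and Rizatriptan. The difference from vehicle was -1.96 ± 0.36 (edgeR unadjusted p = 9.56e-05, adjusted p = 0.356), and DESeq2 gave -1.98 ± 0.41 with an adjusted p of 0.0238. With run code as a block it was -1.44 ± 0.40 (edgeR adjusted p = 0.745). Against the other drugs it was -1.30 ± 0.86 (edgeR adjusted p = 1), where a single drug library in the run of Almotriptan held 13.2 CPM, and -0.86 without Almotriptan.

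Cnn2, a calponin found in many cell types, had 1 of the lowest p-values within run code. It was at 1.2 CPM with Zolmitriptan, 1.31 with Almotriptan, 1.2 with Naratriptan and 1.39 with Rizatriptan, above 0 of 30, 2 of 30, 1 of 29 and 2 of 29 other drugs of the run. The difference was -0.59 ± 0.21 (edgeR unadjusted p = 0.00694, adjusted p = 1), and it stayed between -0.67 and -0.54 when each triptan was left out in turn. The vehicles ran from 1.04 to 2.90 CPM and covered all 4 triptans, with a difference of -0.53 ± 0.28.

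Other markers of vessel-associated cells gave mixed values. Pdgfrb, the growth factor receptor that marks mural cells, was at 40.9, 26, 40.8 and 38.5 CPM in Zolmitriptan, Almotriptan, Naratriptan and Rizatriptan, above all vehicles (16 to 38.1 CPM) in all but Almotriptan, with 0.47 ± 0.23 from vehicle and 0.14 ± 0.13 within run code. By edgeR, 2 of the 5 mural genes tested had an unadjusted p under 0.05 within run code, beside 1.08% of all genes. Against vehicle 3 of them did, beside 12.7% of all genes. The 5 fibroblast markers had medians of 0.24 and -0.13, and summed to 41.8 to 59.8 CPM in the triptans and 24.1 to 72.6 CPM in the vehicles. The 4 tested endothelial markers had medians of 0.06 and -0.06, with list scores from 2 of the genes within run of 0.27 for Zolmitriptan, -0.53 for Almotriptan (above 5 of 30 other drugs), -0.43 for Naratriptan (2 of 29) and -0.02 for Rizatriptan. The fibroblast score with Almotriptan was -0.21, above 3 of 30 other drugs. The list score for mural markers came from 4 of the genes. It was -0.79 for Zolmitriptan and -0.55 for Almotriptan, above 2 of 30 and 9 of 30 other drugs. For Naratriptan and Rizatriptan it was -0.87 and -0.66, above 2 of 29 and 3 of 29 other drugs. The vehicles of their runs were at 1.2, -1.1 and -1.0 in the order Zolmitriptan, Almotriptan and the shared run, so only Zolmitriptan was below its own vehicle.

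The genes with the lowest p-values outside the lists were small in effect. Cntnap1, an axonal adhesion protein of the node of Ranvier, was at 101, 101, 89.5 and 95.2 CPM with Zolmitriptan, Almotriptan, Naratriptan and Rizatriptan, below every vehicle (106 to 129 CPM). Its difference was -0.29 ± 0.06 (edgeR adjusted p = 0.356; DESeq2 adjusted p = 0.0415), -0.16 ± 0.06 with run code as a block, and -0.03 ± 0.08 within run code, where Zolmitriptan was above 7 of 30, Almotriptan 17 of 30, Naratriptan 8 of 29 and Rizatriptan 13 of 29 other drugs. Grin2d, a glutamate receptor subunit, was at -0.27 ± 0.07 and -0.10 ± 0.07. On the other side, Taf13, a subunit of a general transcription factor, was at 0.32 ± 0.09 and 0.06 ± 0.08.

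Within run code the lowest p-values belonged to differences that were smaller still on the higher side. Poglut1, a glycosyltransferase that modifies Notch, was at 53.6, 56.7, 55.4 and 54.4 CPM, above 29 of 30, 30 of 30, 27 of 29 and 22 of 29 other drugs, with a difference of 0.06 ± 0.02 (edgeR unadjusted p = 0.00296, adjusted p = 1). Rngtt, which caps messenger RNA, was at 0.08 ± 0.03. On the lower side, Hic1, a transcriptional repressor, was at -0.44 ± 0.15 and Letm2, a relative of a mitochondrial ion exchanger, at -0.19 ± 0.07. Hic1 was below all 30 other drugs with Zolmitriptan and with Almotriptan, above 2 of 29 with Naratriptan and above 13 of 29 with Rizatriptan.

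Stress and metabolic lists gave no call either. Hypoxia-response genes were below 0 for 16 of 16 in both comparisons, with medians of -0.66 from vehicle and -0.14 within run code. Zolmitriptan went the other way, with 15 of 16 above 0 against vehicle (median 0.26) and 16 of 16 within its run (median 0.20). The list score within run was 0.25 for Zolmitriptan and 0.29 for Rizatriptan, above 20 of 30 and 19 of 29 other drugs. It was -0.09 for Almotriptan and -0.13 for Naratriptan, above 3 of 30 and 3 of 29. Against the vehicle mean only the score of Zolmitriptan was above 0, at 0.37. Adm, which encodes the vasodilator adrenomedullin, was at 11.8 CPM with Zolmitriptan but at 0.361, 1.08 and 1.6 CPM with Almotriptan, Naratriptan and Rizatriptan, and the vehicles spanned 0.676 to 17.5 CPM. Cholesterol synthesis genes had medians of -0.52 from vehicle, with 23 of 23 below 0, and -0.06 within run code. By edgeR, 13 had an unadjusted p under 0.05 against vehicle and none did within run code, beside 12.7% and 1.08% of all genes. Genes of the ATF4 stress response had medians of 0.05 and -0.07, clock genes -0.07 and -0.06, and interferon-response genes 0.16 and -0.05. Within run code the class medians thus kept the sign of the vehicle comparison for hypoxia, cholesterol and clock genes. They turned for ATF4 and interferon genes, and each was within 0.15 log2 units of 0. For hypoxia the members did not share that sign, as the scores of Zolmitriptan and Rizatriptan were above their run's median.

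Each triptan was also examined alone, with the spread taken from the other drugs. No gene passed for Zolmitriptan (0%), Almotriptan (0%), Naratriptan (0%) or Rizatriptan (0%) against the other drugs of the run by edgeR. At an unadjusted p under 0.05 there were 213, 293, 173 and 179 of 15425 genes in that order, and DESeq2 called none. Against the 9 vehicles edgeR called none for any of them (0%), with 288, 319, 766 and 189 genes at an unadjusted p under 0.05. Over all genes of 1 CPM or more, the SD of the log2 deviation from the run median was 0.128 for Zolmitriptan, higher than in 4 of the 31 other libraries of its run. It was 0.161 for Almotriptan (higher than in 14 of 31), 0.184 for Naratriptan (11 of 31) and 0.138 for Rizatriptan (5 of 31), so no triptan library stood among the most deviant of its run.

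DESeq2 made a few calls for single triptans against vehicle, which edgeR did not. For Zolmitriptan it called Sccpdh, a putative oxidoreductase, which was at 93.9 CPM against 65.1 to 73.6 CPM in the vehicles and 64.3 to 68.6 CPM in the other triptans. The difference was 0.45 ± 0.09 by DESeq2 (adjusted p = 0.00727), 0.45 ± 0.08 by edgeR (adjusted p = 0.997) and 0.27 ± 0.12 within run code, where it was above 29 of 30 other drugs. For Naratriptan it called Adora2a, an adenosine receptor, Slc30a3, a zinc transporter of synaptic vesicles, and Npas1, a transcription factor of interneurons, at -1.71 ± 0.38, -0.82 ± 0.18 and -1.81 ± 0.35. Naratriptan was at 5.99, 13.2 and 1.3 CPM for them, below the vehicle ranges of 10.7 to 27.2, 19.4 to 27.3 and 3.4 to 5.33 CPM. Within run code they were at -1.0 ± 0.66, -0.41 ± 0.33 and -1.15 ± 0.66, and Naratriptan was above 8, 8 and 4 of 29 other drugs.

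The 6 pairs of triptans were compared with each other, each drug taken relative to the other drugs of its run code, at the same 8 h. Matched doses cannot be assumed because the concentrations are not given in the sources used here, and only Naratriptan and Rizatriptan share a run. No gene passed in any pair (0% of 15425 genes in each) by edgeR with p-values adjusted over all genes and the 6 pairs together. The numbers at an unadjusted p under 0.05 were 312 for Zolmitriptan against Almotriptan, 206 for Zolmitriptan against Naratriptan, 177 for Zolmitriptan against Rizatriptan, 299 for Almotriptan against Naratriptan, 241 for Almotriptan against Rizatriptan and 171 for Naratriptan against Rizatriptan. These misses do not show that the drugs act alike. The median distance from the centre of a 95% interval to its edge was 0.351 to 0.362 log2 units over the pairs, and 81.9 to 88.2% of genes had an interval within 1 log2 unit of 0.

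Naratriptan and Rizatriptan, read in the same run, set a ring-bound against an open-chain amine. They also differ in the other side chain, a sulfonyl group against a heterocycle. With 1 library each, these features cannot be told apart in this pair. Htr1b differed by -0.05 (95% interval -0.93 to 0.83), Htr1d by -0.73 (-1.70 to 0.24) and Fos by 0.17 (-1.8 to 2.1), Naratriptan minus Rizatriptan. Activity-regulated genes had a median of -0.23 with 25 of 32 below 0, from -1.91 for Nptx2 to 0.71 for Atf3. Arc, a synaptic immediate-early gene, was at 6.95 CPM with Naratriptan and 18.2 CPM with Rizatriptan, a difference of -1.40 (-3.71 to 0.92). Excitatory neuron markers moved beside them, with 8 of 8 below 0 and a median of -0.45, and astrocyte markers were above 0 for 7 of 8 with a median of 0.28. The part of these markers in the other differences was not tested.

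**Figure D5:**
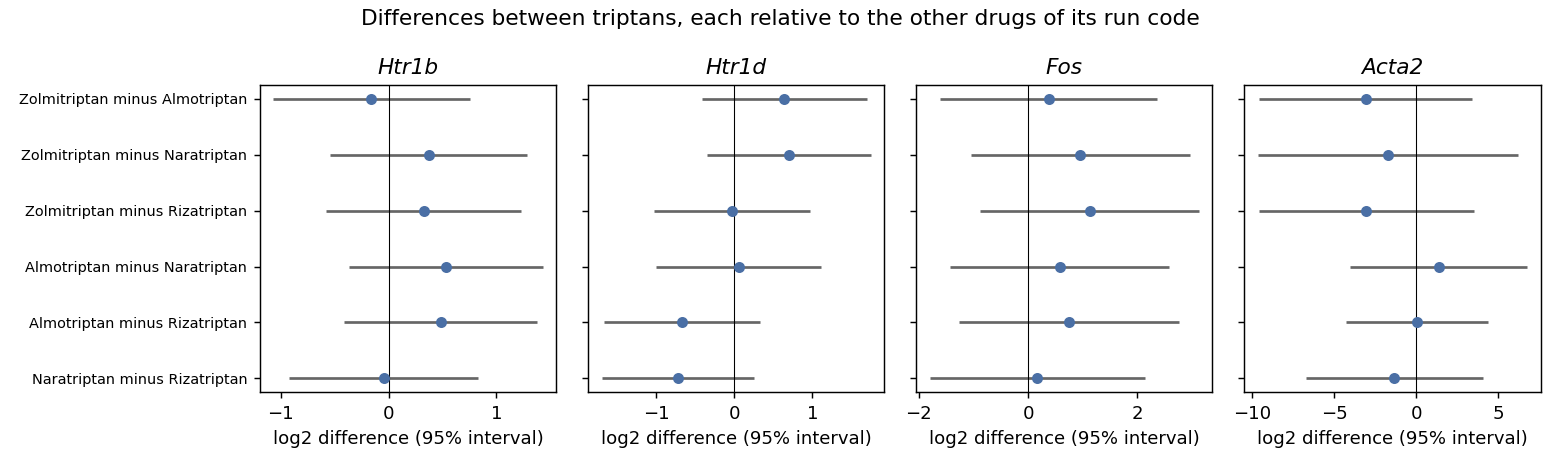
Difference between triptans in log2 units (point) with its 95% interval (line) for 4 genes and the 6 pairs, each drug relative to the other drugs of its run code. All intervals include 0; for Htr1b the difference between Naratriptan and Rizatriptan is -0.05 with an interval of -0.93 to 0.83.

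Grouping the drugs by the named differences in structure gave no call. Naratriptan against the mean of the open-chain triptans had 0% of 15425 genes past the edgeR threshold and 206 at an unadjusted p under 0.05, with a lowest adjusted p of 0.933 and a median distance from interval centre to edge of 0.290 log2 units. Almotriptan and Naratriptan, which carry a sulfonyl group, against Zolmitriptan and Rizatriptan, which do not, had 0% and 242 genes, with a median distance of 0.252. DESeq2 called none in either. Htr1d was at -0.68 (95% interval -1.40 to 0.03) in the sulfonyl contrast, since Almotriptan and Naratriptan were above 4 of 30 and 3 of 29 other drugs of their runs and Zolmitriptan and Rizatriptan above 23 of 30 and 24 of 29. Htr1b was at 0.06 (-0.58 to 0.69) in that contrast and at -0.32 (-1.06 to 0.42) for the ring-bound against the open-chain amine.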

How the data were processed

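The authors deposited whole-number counts per Ensembl gene (31689 genes) and RPKM values for 227 libraries. Per the submitters' processing notes, the tools were edgeR 3.10.5, limma, Subread 1.4.6 and STAR 2.4.0, and the build mm10; their roles are not given in the sources used here. Counts were then tested in R 4.3.3 with edgeR 4.0.16 (TMM factors, default filter on low counts, quasi-likelihood F tests) as 4 triptans against 9 vehicles, and against 89 other drugs with run code as a term. DESeq2 1.42.0 and limma 3.58.1 were alternatives, beside other scaling, no filter, run code as a block, other comparators and leaving out each library. The deposited RPKM values served only for levels between genes. The fits were tested on simulated data. Gene positions are from GENCODE vM21. The 26 lists hold 338 genes; 334 were found by symbol and 4 by current symbol. The members and lists were chosen with earlier results of these data known. Named genes were the members of 5 lists (serotonin receptors, serotonin handling, Gi/o signalling, migraine peptides, familial migraine), up to 4 members of each other list by size of difference, any gene past the threshold, and the 5 lowest p-values in each direction with a mean of 1 CPM or more and all triptans on 1 side. Cnn1, Fos, Npas4, Arc, Sccpdh, Adora2a, Slc30a3 and Npas1 were chosen or singled out after their values were seen. The text prints values for some of the genes so named; the others enter through list counts and medians, and some results are not reported here.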

Additional observations from a re-analysis of the deposited data

Results flagged for a closer look

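The groups of values examined, 118 of them, were each the 9 vehicle levels or the 4 within-run deviations of the triptans for a gene described above. Of these, 6 held a library far from the others. How many chance alone would give was not tested, and the groups share the same libraries. Naratriptan stood apart for Arc, at -1.30 log2 units from the other drugs of its run where the other triptans were at 0.09 to 0.31. It also stood apart for Htr1a, at -0.26 against 0.12 to 0.18. Almotriptan stood apart for Pdgfrb, at -0.43 against 0.26 to 0.38. Among the vehicles, Vehicle 4, of the run of Almotriptan, was at -0.45 log2 CPM for Maob where the others were at 0.31 to 1.07. Vehicle 3 was at -2.95 log2 CPM for Slc6a4 against -1.82 to -0.78, and Vehicle 2 at -2.39 log2 CPM for Tph2 against -1.83 to -1.32, both at levels of few counts.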

How the results depend on the processing

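The numbers of genes past the threshold were 0 in 78 of the 81 alternative fits run for the class, the single drugs, the pairs and the structural contrasts. With DESeq2 they were 2 for the triptans against vehicle, 1 for Zolmitriptan against vehicle and 3 for Naratriptan against vehicle. The count stayed at 0 when each triptan or vehicle was left out in turn. Of the single-gene differences under the alternatives, 4943 stayed within their replicate spread or on their side of the threshold, and 222 moved by more. By DESeq2, 2 (Cntnap1 at -0.29 and Cnn1 at -1.98) passed the threshold. The main fits called no gene, so no called value could change sign. Replicate numbers pair no libraries, since each drug has 1 library; matching by run code was run as a block, with 0 genes past the threshold. With 1 library a drug and 4 in the class, changes within the intervals given above cannot be seen, and larger ones can miss the adjusted threshold. A drug's run code and its effect against the vehicles of other runs cannot be told apart.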
